A study of Mus musculus with 6 samples.

Results

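Type I spiral ganglion neurons carry the signal of the inner hair cells (IHCs) to the brain, and several of them contact each IHC. They fall into subtypes that differ in firing properties and in where they touch the hair cell, and the mature subtypes are told apart by the genes Calb2, Calb1, Pou4f1 and Lypd1, a division that sharpens around and after birth and needs input from the hair cells. The genes described here are Calb2, Calb1, Pou4f1, Lypd1, Runx1, Pcdh20, Rxrg and Grm8, taken by symbol as markers of these subtypes. All 8 were found among the 24411 gene symbols of each deposited file, and all 8 were among the 15303 genes that passed the filter on low counts.

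The libraries came from cochlear sensory epithelium of C57BL/6N mice at P9, before the onset of hearing. Kir2.1-OE mice carried 1 Otof rtTA allele and 1 tetO-Kir2.1-IRES-tau-lacZ allele, so that doxycycline (DOX), given in drinking water at 0.5 mg/ml, turned on Kir2.1, a K+ channel of the inward rectifier type, where cells use the promoter of Otof, a gene of hair cells and mainly of IHCs. Controls were littermates with the Otof rtTA allele alone and the same DOX. Each group had 3 libraries, and each library was 1 pool of 8 cochleae from 4 mice. The pool is therefore the replicate, and p-values set the difference between groups against the spread between pools. The transgene is meant to act in the hair cells and not in the neurons, and the dissected tissue holds neuronal processes and an unknown number of cell bodies beside hair cells, glia and other tissue. In such tissue fewer cells of a type and less RNA per cell cannot be told apart.

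Between 35430940 and 38193109 read pairs were assigned to genes in the Kir2.1-OE libraries and between 37063812 and 41205047 in the controls. Kcnj2, which encodes Kir2.1, had 3608, 3809 and 2211 normalized counts (counts scaled by edgeR's TMM library sizes) in the Kir2.1-OE pools and 235.5, 227.8 and 225.7 in the controls, so each library followed its label. Values of single pools are given here in the order of replicates 1, 2 and 3. Kir2.1-OE replicate 3 held the lowest Kcnj2 level of its group and the highest level of neuronal genes, given below.

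The subtype genes did not move as 1 block. Calb2, Pou4f1, Runx1 and Grm8 rose in Kir2.1-OE mice, Calb1 fell, and Lypd1, Pcdh20 and Rxrg were not called. A gene counted as called when its Benjamini-Hochberg adjusted p, taken over all 15303 genes tested with edgeR's quasi-likelihood method, was below 0.05 and its fold change exceeded 1.5. By this rule 4 of the 8 genes were higher, where 15.5% of all genes tested were called higher, and 1 was lower, where 5.08% were called lower. Without the fold limit 4 were higher and 2 lower, beside 27.3% and 23.5% of all genes. The values of 5 of the 8 did not overlap between the groups, against 61.6% of all genes tested, so a lack of overlap sets none of them apart. Their median log2 fold change was 0.26, beside 0.01 over all genes. The balance of calls over all genes, 2365 higher and 778 lower, became 1897 and 1378 with upper quartile scaling, under which each of the 8 genes kept its direction.

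**Figure D1:**
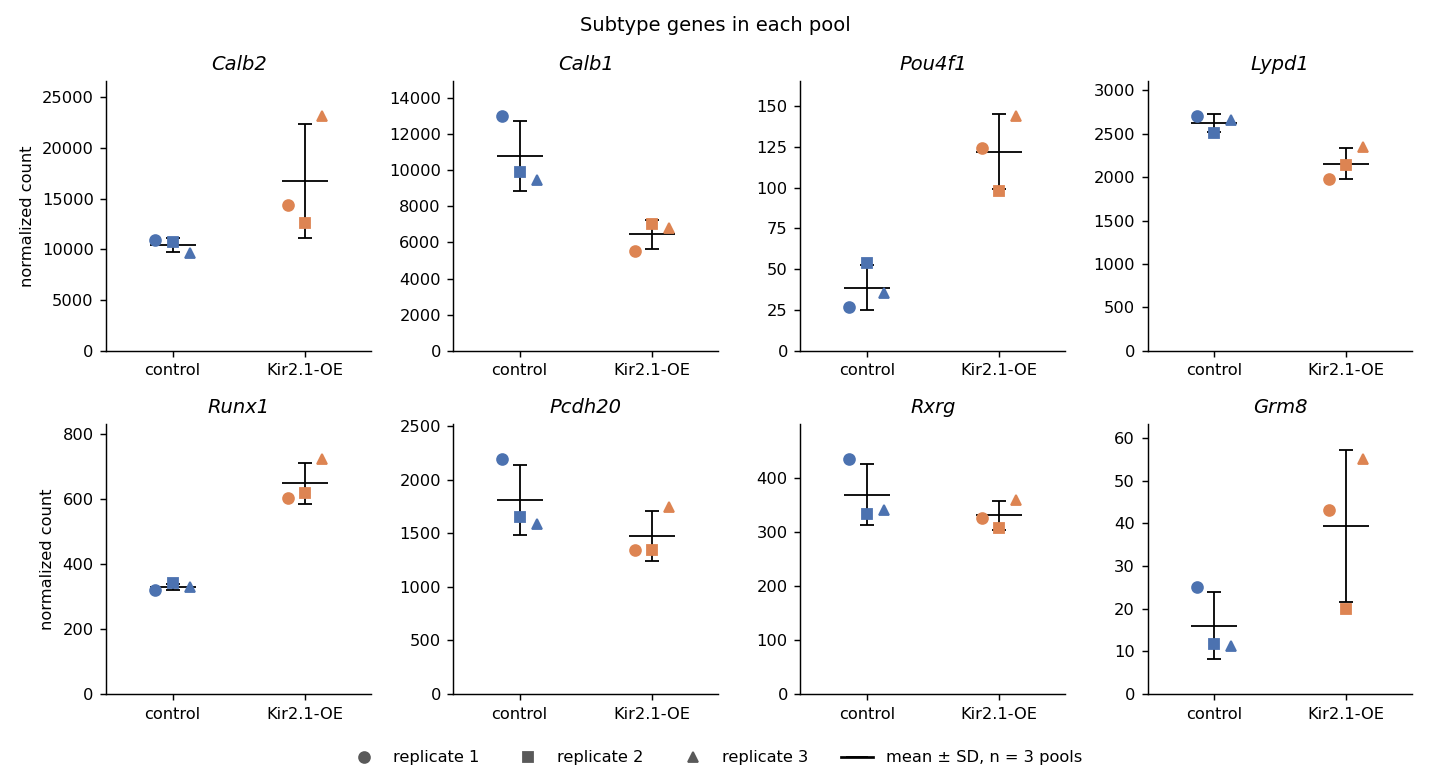
Normalized counts of the 8 subtype genes in each pool (y axis, from 0; symbols mark the replicate number, bars the mean ± SD of 3 pools). Calb2, Pou4f1 and Runx1 lie higher in every Kir2.1-OE pool, Calb1 and Lypd1 lie lower in every one, and Pcdh20, Rxrg and Grm8 overlap.

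Per length, the genes differed widely in level. Levels were computed as TPM (counts divided by transcript length and scaled to 1 total in all libraries) with each gene's longest annotated transcript as its length. On that scale, in controls, Calb2 stood first with 463.6 ± 34.2 TPM (SD, n = 3 pools) and Calb1 second with 162.6 ± 28.2. Lypd1 with 25.8 ± 0.688 and Pcdh20 with 21.99 ± 3.91 TPM came next, and these neighbours overlapped in both groups. Rxrg followed with 11.1 ± 1.64 TPM, Runx1 with 3.58 ± 0.151 and Pou4f1 with 0.556 ± 0.202. Grm8 was lowest, with 0.212 ± 0.103 TPM. On the same scale the order was the same in Kir2.1-OE mice, from 849.5 ± 278.8 TPM for Calb2 and 110.9 ± 10.4 for Calb1 down to 1.998 ± 0.391 for Pou4f1 and 0.599 ± 0.272 for Grm8, and no neighbours other than Lypd1 and Pcdh20 overlapped in either group. These levels depend on the transcript taken as the length, since the longest and next longest have 4222 and 736 nt for Calb1, 4445 and 799 nt for Pou4f1 and 6464 and 1511 nt for Lypd1. With the median transcript of each gene as its length, Calb1 stood above Calb2 in controls (356.5 ± 63.9 against 234.7 ± 17.1 TPM) and below it in Kir2.1-OE mice (222.8 ± 23.1 against 394.4 ± 132.7), so the order of these genes is not settled by the counts.

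Calb2 and Calb1 encode calretinin and calbindin D-28k, cytosolic EF-hand proteins that buffer Ca2+. Calretinin marks the neurons of 1 end of the type I range and calbindin those in its middle, and both proteins are also found in hair cells. Calb2 lies on chromosome 8 of mm10 from 110137502 to 110168210 and Calb1 on chromosome 4 from 15881264 to 15908064.

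Calb2 had 14367, 12640 and 23142 normalized counts in the Kir2.1-OE pools and 10890, 10746 and 9620 in the control pools. The groups did not overlap, and Kir2.1-OE replicate 3 stood well above the other pools. The mean was 16716 ± 5632 (SD, n = 3) against 10419 ± 695.3, a 1.60-fold difference. The log2 fold change was 0.68 (standard error 0.192, 95% interval 0.25 to 1.11, edgeR's quasi-likelihood adjusted p = 0.0151). Without Kir2.1-OE replicate 3 the log2 fold change of Calb2 was 0.36, under the 1.5-fold limit, with an adjusted p of 0.0124 from edgeR. A log2 fold change above 0.6 was not shown for Calb2 (adjusted p = 0.810 from edgeR's glmTreat).

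Calb1 went the other way, with 5541, 7014 and 6784 normalized counts in the Kir2.1-OE pools against 12991, 9901 and 9477 in the controls. Every Kir2.1-OE pool lay below every control pool. The mean was 6446 ± 792.2 (SD, n = 3) against 10790 ± 1918, so that controls were 1.67-fold higher. The log2 fold change was -0.74 (standard error 0.133, 95% interval -1.04 to -0.44, edgeR's quasi-likelihood adjusted p = 0.00165), and it stayed between -0.83 and -0.59 when each library was left out in turn. Against the same limit of 0.6 Calb1 was not called either (adjusted p = 0.404 from edgeR's glmTreat).

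Of 6 other EF-hand genes tested, among them the parvalbumin gene Pvalb, its hair cell relative Ocm and S100b, 0 were called in either direction by edgeR, DESeq2 or limma-voom, 3 had an unadjusted p under 0.05, and their median log2 fold change was -0.22. Pvalb had a log2 fold change of -0.02, Ocm -0.30 and S100b 0.09. Scgn, the gene of secretagogin, was under the count filter.

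Some hair cell genes rose as well. Of 5 IHC genes, Otof (log2 fold change 0.76) and Slc7a14 (1.36) rose, while the vesicular glutamate transporter gene Slc17a8 had 0.09, and the median of the 5 was 0.32 and their summed normalized counts were 16977 to 19925 in Kir2.1-OE pools and 14081 to 15472 in controls. Of 5 outer hair cell genes, the prestin gene Slc26a5 (0.62) and Ikzf2 (0.60) rose, with a median of 0.16 and sums of 18769 to 21834 against 17002 to 20228. None of these 10 genes was at 0 in any library. With offsets for transcript length and GC content Otof had a log2 fold change of -0.10 and was no longer called, nor was Ikzf2 (0.32). The part of hair cell RNA in the changes of Calb2 and Calb1 was not tested.

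Pou4f1, Runx1 and Rxrg encode transcription factors. POU4F1 (BRN3A) is a POU homeodomain factor of sensory neurons that stays on in part of the type I neurons, RUNX1 is a Runt domain factor that shapes subtype identity in sensory neurons and also works in blood cells, and RXRG is a retinoid X receptor that binds DNA in pairs with other nuclear receptors. Pou4f1 lies on chromosome 14 from 104461676 to 104467999, Runx1 on chromosome 16 from 92601466 to 92826149 and Rxrg on chromosome 1 from 167598384 to 167639623.

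Pou4f1 had the highest fitted fold change of the 8 genes, although the interval of Grm8 covers it and Grm8 was higher without control replicate 1 (1.76 against 1.44). Its normalized counts were 124.1, 97.8 and 143.7 in the Kir2.1-OE pools and 27.1, 53.5 and 35.6 in the controls. The groups did not overlap, although each library held few reads of this gene. The mean was 121.9 ± 23.0 (SD, n = 3) against 38.7 ± 13.5, a 3.15-fold difference. This gave a log2 fold change of 1.64 (standard error 0.284, 95% interval 1.01 to 2.28, edgeR's quasi-likelihood adjusted p = 0.00139), and with each library left out it stayed between 1.44 and 1.96.

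Runx1 had 604.9, 617.9 and 722.8 normalized counts in the Kir2.1-OE pools against 320.7, 340.3 and 328.4 in the controls. The pools of each group lay close together and the groups far apart. The mean was 648.5 ± 64.6 (SD, n = 3) against 329.8 ± 9.91, a 1.97-fold difference. The fit gave a log2 fold change of 0.97 (standard error 0.106, 95% interval 0.74 to 1.21, edgeR's quasi-likelihood adjusted p = 1.91e-04). Pou4f1 and Runx1 were the 2 genes of the 8 that edgeR's glmTreat also called against a log2 fold change of 0.6. Of all 15303 genes tested, it called 832 higher and 57 lower.

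Rxrg was not called, with 325.0, 307.4 and 359.3 normalized counts in Kir2.1-OE pools and 433.9, 333.1 and 339.6 in controls. The groups overlapped, and control replicate 1 was the highest pool. The log2 fold change was -0.16 (standard error 0.137, 95% interval -0.47 to 0.15, edgeR's quasi-likelihood adjusted p = 0.364), so a change of Rxrg beyond 1.5-fold in either direction lies outside the interval. Without control replicate 1 the value was -0.026.

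Among relatives of the first 2 factors and genes listed with them, Pou4f2 (log2 fold change 1.03) and the co-repressor gene Runx1t1 (1.01) rose. These were 2 of the 5 genes that passed the count filter (median 0.26), and Runx1t1 is not a RUNX family gene. limma-voom called 1 of them, and with length and GC offsets Pou4f2 (1.00) was not called. Pou4f2 had 116.0 ± 59.8 normalized counts (SD, n = 3) against 56.6 ± 20.2 with overlapping pools. Pou4f3, the hair cell member of the family, had a log2 fold change of 0.05, Runx2 had 0.26 and Cbfb, the partner of the RUNX proteins, -0.17. The retinoid receptor genes Rxra, Rxrb, Rara, Rarb and Rarg were called in 0 of 5 cases by edgeR, DESeq2 or limma-voom, 4 of them having an unadjusted p under 0.05, with log2 fold changes from -0.19 (Rxrb) to 0.49 (Rara) and a median of 0.17. At an adjusted p under 0.05 without the fold limit, Rara and Rarg (0.40) were higher and Rxrb lower in Kir2.1-OE mice. With length and GC offsets Rara (0.18) and Rarg (0.19) did not pass. Rxra (-0.36) and Rxrb (-0.41) were lower at that threshold in the same fit, both under the 1.5-fold limit.

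Macrophage and blood cell genes, which stand for other cells that use Runx1, were called in 0 of 8 cases by edgeR, DESeq2 or limma-voom, 3 of them having an unadjusted p under 0.05, with a median log2 fold change of 0.23. Their summed normalized counts were 6614 to 7012 in Kir2.1-OE pools and 5940 to 6180 in controls, none was at 0 in any library, and the highest of their log2 fold changes was 0.47 (Csf1r). Of 5 cartilage and bone genes tested Acan (1.54) and Col2a1 (1.02) rose, with a median of 0.67 and sums of 643359 to 774718 against 287029 to 401386. With length and GC offsets Acan had 0.72 and Col2a1, no longer called, 0.31. Their part in the change of Runx1 was not tested.

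Promoter windows, from 250 bases before to 50 bases after an annotated start (RefSeq, GRCm38.p6, the assembly behind mm10), were found for 6 of the 8 genes, 12 windows in all. They were searched on both strands for TGTGGT, the core that RUNX proteins bind, and for AGGTCA, the half-site of nuclear receptors such as RXRs, because Runx1 and Rxrg are among the 8 genes. TGTGGT was found in 2 of the 12 windows, beside 16.8% of all 32851 windows, and AGGTCA in 2 of the 12, beside 16.3%. The 4 windows with a match are printed below with the matches in capitals, and that of Pou4f1, the gene with the highest fitted fold change, follows them without one.
Runx1, chr16:92826025-92826324, minus strand: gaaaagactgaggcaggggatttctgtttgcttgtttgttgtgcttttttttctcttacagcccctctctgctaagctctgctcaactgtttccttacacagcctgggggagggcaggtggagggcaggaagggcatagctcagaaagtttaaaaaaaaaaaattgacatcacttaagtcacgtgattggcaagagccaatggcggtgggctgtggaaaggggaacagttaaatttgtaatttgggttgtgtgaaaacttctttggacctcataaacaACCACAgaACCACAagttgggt
Lypd1, chr1:125912165-125912464, minus strand: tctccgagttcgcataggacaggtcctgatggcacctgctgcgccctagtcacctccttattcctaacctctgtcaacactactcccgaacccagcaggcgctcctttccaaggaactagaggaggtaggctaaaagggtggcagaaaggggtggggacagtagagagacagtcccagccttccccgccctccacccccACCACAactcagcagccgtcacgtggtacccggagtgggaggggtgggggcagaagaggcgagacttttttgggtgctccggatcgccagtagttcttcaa
Rxrg, chr1:167618015-167618314, plus strand: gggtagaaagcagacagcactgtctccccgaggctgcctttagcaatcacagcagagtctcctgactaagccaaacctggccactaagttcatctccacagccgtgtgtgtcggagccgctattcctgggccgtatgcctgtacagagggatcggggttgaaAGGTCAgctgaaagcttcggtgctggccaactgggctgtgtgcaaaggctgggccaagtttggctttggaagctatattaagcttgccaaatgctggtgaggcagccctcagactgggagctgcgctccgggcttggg
Grm8, chr6:28126377-28126676, minus strand: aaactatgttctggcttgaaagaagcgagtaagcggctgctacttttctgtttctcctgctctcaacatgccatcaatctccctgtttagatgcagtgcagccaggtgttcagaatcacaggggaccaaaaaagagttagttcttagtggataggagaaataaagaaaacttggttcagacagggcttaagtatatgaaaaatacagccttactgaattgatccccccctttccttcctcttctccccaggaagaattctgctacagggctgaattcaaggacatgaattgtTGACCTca
Pou4f1, chr14:104467950-104468249, minus strand: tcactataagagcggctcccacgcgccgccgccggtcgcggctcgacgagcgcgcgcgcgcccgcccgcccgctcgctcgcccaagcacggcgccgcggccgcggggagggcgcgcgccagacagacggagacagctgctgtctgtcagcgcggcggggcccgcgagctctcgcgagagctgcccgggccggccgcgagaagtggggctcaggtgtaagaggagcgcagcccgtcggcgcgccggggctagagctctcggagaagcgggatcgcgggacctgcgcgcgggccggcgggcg
The Runx1 window, at the distal of its annotated starts, holds 2 RUNX cores within the transcribed part, 28 and 36 bases after the start. The proximal Runx1 window holds 0. The Pou4f1 window has 78.3% G and C with 57 CpG pairs, against a median of 52.7% G and C over all windows. The counts are per gene and do not tell the starts of Runx1 apart, and a match of letters is not a site of binding.

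Lypd1 and Pcdh20 encode proteins of the cell surface. LYPD1 is a small lipid-anchored protein of the Ly6 family, some of which bind nicotinic acetylcholine receptors, and it marks the same end of the type I range as POU4F1. PCDH20 is a non-clustered protocadherin, a cell adhesion molecule. Lypd1 lies on chromosome 1 from 125867622 to 125913101 and Pcdh20 on chromosome 14 from 88464743 to 88471396.

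Lypd1 did not rise with Pou4f1. It had 1982, 2139 and 2342 normalized counts in the Kir2.1-OE pools and 2702, 2510 and 2660 in the controls, every Kir2.1-OE pool below every control pool. The mean was 2154 ± 180.4 (SD, n = 3) against 2624 ± 101.1, so that controls were 1.22-fold higher. In log2 terms the change was -0.28 (standard error 0.0782, 95% interval -0.46 to -0.11, edgeR's quasi-likelihood adjusted p = 0.0135), under the 1.5-fold limit. With offsets for transcript length and GC content it was -0.72 and called (adjusted p = 0.00106 from edgeR). That value took the transcript of 6464 nt as the length of the gene, and with offsets from the median transcript, of 1447 nt, the log2 fold change of Lypd1 was -0.35. On the opposite strand Lypd1 shares 1202 exonic bases with Gpr39, whose log2 fold change was 0.50, and without a stated strand setting reads from these bases cannot be told apart.

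Pcdh20 had 1340, 1341 and 1748 normalized counts in Kir2.1-OE pools against 2191, 1655 and 1589 in controls. The groups overlapped, with Kir2.1-OE replicate 3 above 2 of the control pools. The log2 fold change was -0.30 (standard error 0.143, 95% interval -0.62 to 0.03, edgeR's quasi-likelihood adjusted p = 0.111). A decrease of Pcdh20 by 1.5-fold is within the interval and was not shown. The value was -0.14 without control replicate 1 and -0.45 without Kir2.1-OE replicate 3 (adjusted p = 0.0217 from edgeR), both under the 1.5-fold limit. With offsets from the median transcript the log2 fold change was -0.62 and passed the threshold (adjusted p = 0.00597 from edgeR).

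Relatives of these surface proteins moved in both directions. Of 5 Ly6 genes, Lynx1 (log2 fold change 1.05), a regulator of nicotinic receptors, rose and Ly6h (-1.10) fell, while Lypd6, Lypd6b and Ly6e had -0.36, -0.12 and 0.28 (median -0.12). Of 9 other non-clustered protocadherin genes, Pcdh1 (0.69) and Pcdh7 (0.74) rose, and the remaining 7 were not called (median 0.30). Pcdh1 and Pcdh7 had log2 fold changes of -0.03 and 0.20 once length and GC content were accounted for.

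Grm8 encodes a group III metabotropic glutamate receptor, a Gi-coupled receptor that damps transmission at many synapses. It lies on chromosome 6 from 27275119 to 28135178 and was the least abundant of the 8 genes. It had 43.1, 19.96 and 54.9 normalized counts in the Kir2.1-OE pools and 25.1, 11.8 and 11.2 in the controls, and Kir2.1-OE replicate 2 lay below control replicate 1. The mean was 39.3 ± 17.8 (SD, n = 3) against 16.0 ± 7.84, and the log2 fold change was 1.29 (standard error 0.462, 95% interval 0.25 to 2.33, edgeR's quasi-likelihood adjusted p = 0.0413). The call was lost without Kir2.1-OE replicate 1 (1.20), Kir2.1-OE replicate 3 (0.96), control replicate 2 (1.11) or control replicate 3 (1.10), at adjusted p-values of 0.120, 0.146, 0.121 and 0.115 from edgeR. Of the other metabotropic glutamate receptor genes 5 passed the count filter, with a median log2 fold change of -0.29, and 0 were called by edgeR, DESeq2 or limma-voom, 2 having an unadjusted p under 0.05. At an adjusted p under 0.05 without the fold limit Grm4 (0.32) was higher, and with length and GC offsets it was lower (-0.29, adjusted p = 0.0330 from edgeR).

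**Figure D2:**
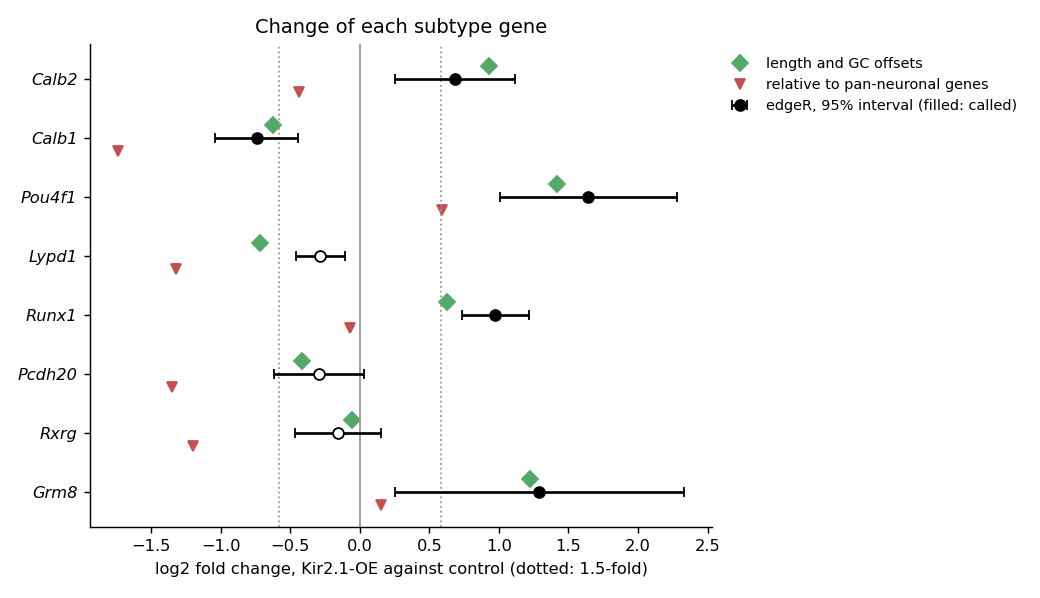
Log2 fold change of each subtype gene, Kir2.1-OE against control (black circles with 95% intervals, filled where called), beside the value with length and GC offsets (green diamonds) and relative to the pan-neuronal genes (red triangles). Pou4f1, Runx1, Calb2 and Grm8 lie to the right of 0 and Calb1 to the left in the first fit, and relative to the pan-neuronal genes every gene shifts to the left.

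The 4 class markers were also set against each other within each pool, since such ratios do not depend on the scaling between libraries. The ratios do depend on the make-up of the tissue. The part of cells other than neurons in the counts of these markers was not tested, so a shift is not shown to be one between neuron classes. A ratio of counts is not a ratio of levels per length, so it is read only between the groups. The log2 ratio of Calb2 to Calb1 was 1.37, 0.85 and 1.77 in the Kir2.1-OE pools and -0.25, 0.12 and 0.02 in the controls, a mean difference of 1.37. Pou4f1 to Lypd1, a pair with the same subtype, was -4.00, -4.45 and -4.03 against -6.64, -5.55 and -6.22, a mean difference of 1.98. Calb1 to Pou4f1 differed most, at 5.48, 6.16 and 5.56 against 8.91, 7.53 and 8.06, a mean difference of -2.43. The smallest shift was that of Calb1 to Lypd1, with 1.58 ± 0.121 (SD, n = 3) against 2.03 ± 0.220. None of the 6 ratios overlapped between the groups, which for Calb2 or Pou4f1 against Calb1 or Lypd1 follows from the values of the single genes, and 61.6% of all single genes did not overlap either. With 3 pools against 3 an exact two-sided permutation test of 1 ratio reaches p = 0.10 at best.

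**Figure D3:**
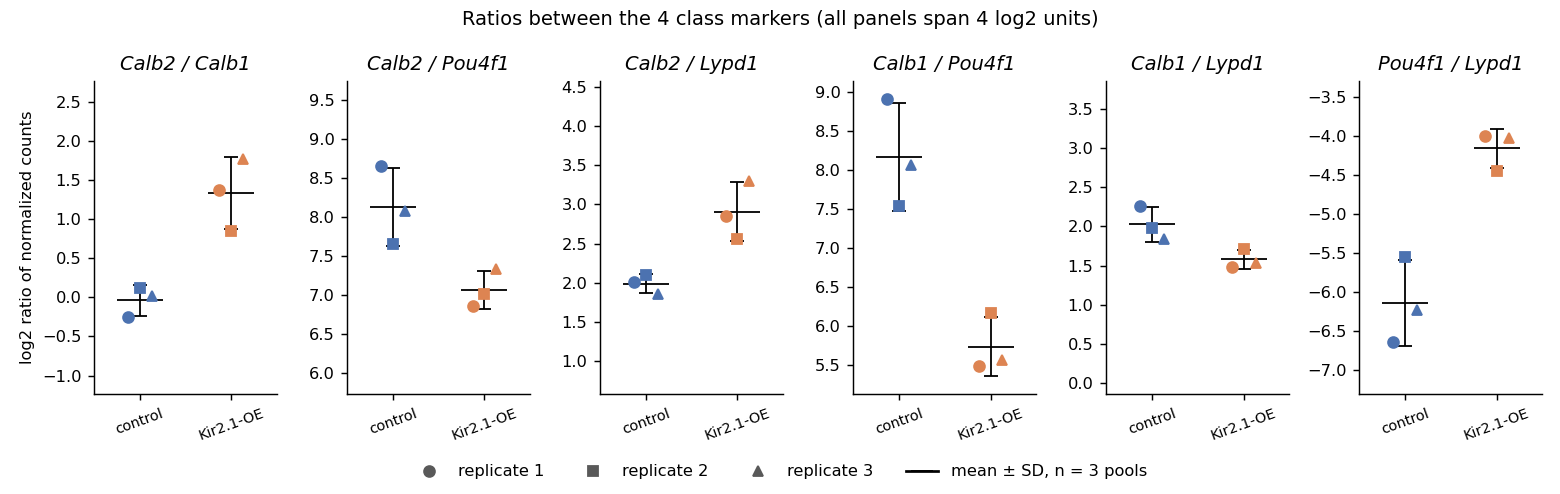
Log2 ratios of normalized counts between the 4 class markers in each pool (y axis; symbols mark the replicate number, bars the mean ± SD of 3 pools). The ratio of Calb2 to Calb1 lies between 0.85 and 1.77 in Kir2.1-OE pools and between -0.25 and 0.12 in controls, and the other 5 ratios also lie apart.

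Of 14 pan-neuronal genes, 10 rose and 1 fell, with a median log2 fold change of 1.06. The neurofilament genes Nefh (2.52), Nefm (1.94) and Nefl (1.55), the RNA-binding protein genes Elavl3 (2.27) and Rbfox3 (1.58) and the intermediate filament gene Ina (1.72) rose most. The glutamate transporter gene Slc17a7 had 1.01, Thy1 1.00 and the neurotrophin-3 receptor gene Ntrk3 0.77. Tubb3, the neuronal tubulin gene, had 0.38, Stmn2 0.68 and Gap43 -0.12, and were not called. Uchl1, a ubiquitin hydrolase gene of neurons and other cells, fell with a log2 fold change of -0.80. With length and GC offsets 8 of the 14 were called higher and 0 lower, with Ntrk3 (0.23), Slc17a7 (0.85) and Uchl1 (-0.54) not called.

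The mean log2 normalized count of the 14 genes was 10.67, 10.12 and 11.26 in the Kir2.1-OE pools and 9.72, 9.88 and 9.24 in the controls. Kir2.1-OE replicate 3, the pool with the most Calb2, Pou4f1, Runx1 and Grm8, was also the highest of all here, and Kir2.1-OE replicate 2 was the lowest of its group. Summed normalized counts of the list ran from 31862 to 68268 in Kir2.1-OE pools and from 24225 to 33130 in controls, and no gene of the list was at 0. A large part of the control sums was Uchl1, also a gene of other cells. Uchl1 had 7756 to 10116.5 normalized counts in Kir2.1-OE pools and 13278.5 to 18573.7 in controls. Of 6 glial genes 2 rose, among them the periaxin gene Prx (1.16), with a median of 0.48 and sums of 372885 to 489793 against 264387 to 337765, and with length and GC offsets Prx had 0.53 and was not called.

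Relative to the mean of these 14 genes in the same pool, 5 of the 8 subtype genes were lower in Kir2.1-OE pools without overlap, and 3 overlapped. Such a ratio describes neurons only where the counts of the gene come from neurons. The part of other cells in the counts of the 8 genes was not tested. Of all genes tested 63.6% were lower without overlap on this scale and 0.693% higher, so the count of 5 does not set the subtype genes apart. The log2 ratio of Calb1 was 1.77, 2.65 and 1.47 in the Kir2.1-OE pools and 3.95, 3.39 and 3.97 in controls, a mean difference of -1.80. Lypd1 stood at 0.39 ± 0.510 (SD, n = 3) against 1.74 ± 0.366 in controls, Pcdh20 at -0.17 ± 0.389 against 1.19 ± 0.333 and Rxrg at -2.32 ± 0.456 against -1.10 ± 0.356, all without overlap. Calb2 differed least of the 5, with 3.29 ± 0.185 against 3.73 ± 0.243. Its groups were barely apart, with 3.501 in Kir2.1-OE replicate 2 and 3.508 in control replicate 2. Runx1 (-1.25 ± 0.320 in controls, -1.35 ± 0.460 in Kir2.1-OE mice), Grm8 (-5.72 ± 0.627 and -5.51 ± 0.285) and Pou4f1 (-4.40 ± 0.489 and -3.77 ± 0.296) overlapped between the groups. Pou4f1 overlapped only narrowly, with -4.094 in Kir2.1-OE replicate 3 and -4.089 in control replicate 3.

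An edgeR fit scaled to the pan-neuronal genes in place of all reads gave log2 fold changes of -1.74 for Calb1, -1.35 for Pcdh20, -1.33 for Lypd1 and -1.20 for Rxrg, all called lower. In that fit 50.4% of all genes tested were called lower and 0.229% higher, with a median log2 fold change of -1.01, so these 4 calls are close to what was found over all genes. Calb2 had -0.44, Runx1 -0.072, Grm8 0.15 and Pou4f1 0.59, and none of them passed the threshold (adjusted p = 0.399, 0.888, 0.822 and 0.281 from edgeR). These values depend on which neuronal genes stand for the neurons, since the 14 ranged from -0.80 to 2.52. How much of each change goes with the amount of neuronal RNA in a pool was not tested.

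**Figure D4:**
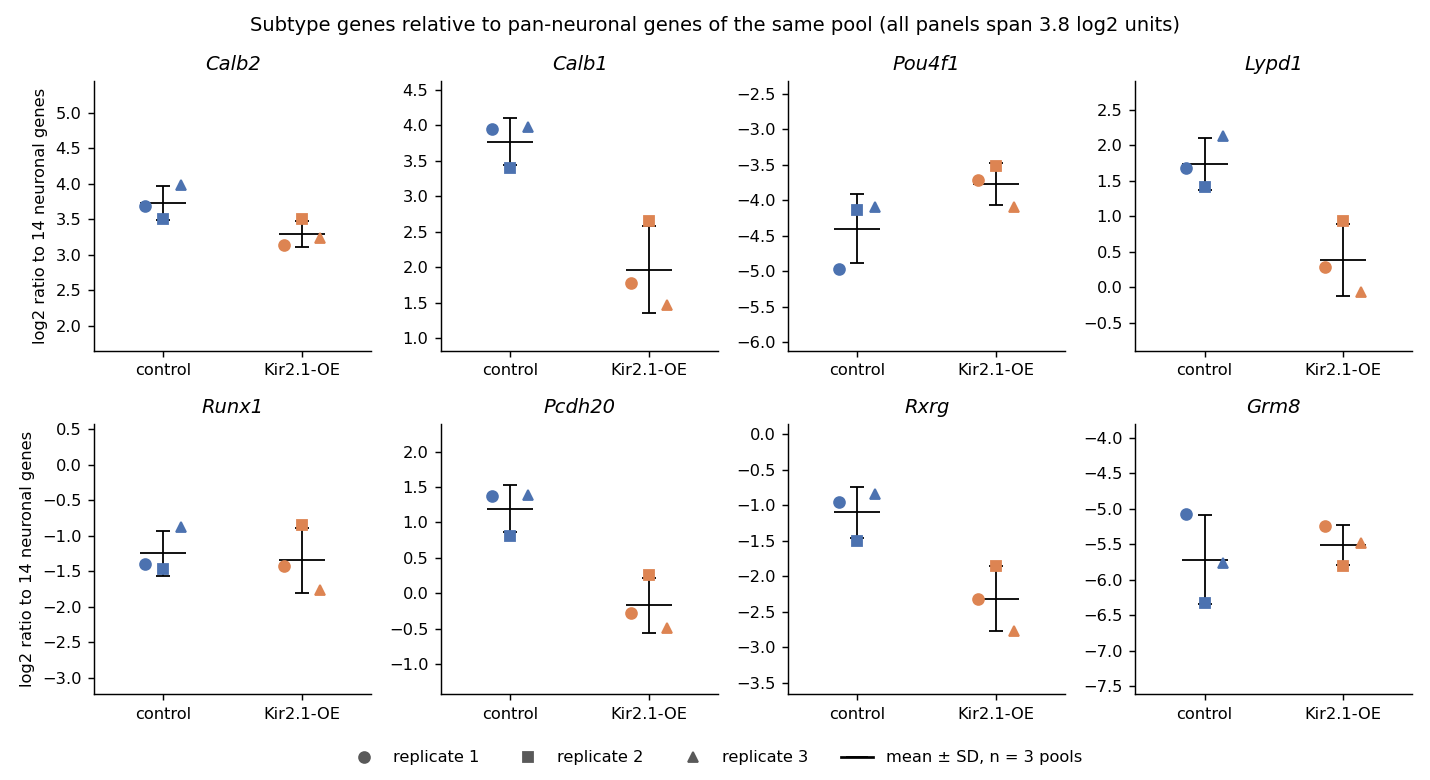
Log2 ratio of each subtype gene to the mean of 14 pan-neuronal genes in the same pool (y axis, same span in every panel; symbols mark the replicate number, bars the mean ± SD of 3 pools). The means of Calb1, Lypd1, Pcdh20 and Rxrg lie more than 1 log2 unit lower in Kir2.1-OE pools, Calb2 lies slightly lower, and Pou4f1, Runx1 and Grm8 overlap.

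Of 7 other genes tested that vary among type I neurons, B3gat1 (log2 fold change 1.28), Prox1 (1.13), Cdh9 (1.12) and Esrrg (0.79) rose, Kcnip2 had 0.76, Trim54 0.16 and Lrrc52 -0.55, and 0 fell, with a median of 0.79. limma-voom called 2 of these 7 in place of 4, and with length and GC offsets B3gat1 (0.98) was not called. The pools of B3gat1 and of Cdh9 overlapped between the groups, Kir2.1-OE replicate 2 lying below control replicate 2 for both genes. Prox1, a homeobox gene, is also used by supporting cells of the organ of Corti. Of 3 genes tested that are linked to type II neurons, which contact outer hair cells, 0 were called by edgeR, DESeq2 or limma-voom and 1 had an unadjusted p under 0.05. Prph, which encodes peripherin, had a log2 fold change of 0.14, Th 0.77 and Etv4 -0.53, of which Etv4 passed at an adjusted p under 0.05 without the fold limit and was called lower with length and GC offsets (-0.60).

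Further lists of the dissected tissue were read against the same 15.5% of all genes called higher and 5.08% called lower. Of 6 genes shared by hair cells Myo7a (1.17) rose, with a median of 0.19 and sums of 19590 to 23105 normalized counts in Kir2.1-OE pools and 16504 to 17448 in controls. Of 7 supporting cell genes Otog (0.81) rose and Tectb (-0.69) and Hes5 (-1.42) fell, with a median of 0.04. Their sums were 222971 to 238958 against 260836 to 355978. Tectb alone made up most of these sums, with 128596 to 149136 normalized counts in Kir2.1-OE pools and 180608 to 282142 in controls. With length and GC offsets Myo7a (0.31), Otog (-0.21) and Hes5 (-1.27) were not called, and the median of the hair cell list was -0.32. Of 5 erythroid genes Hba-a1 (-1.18), Hbb-bt (-1.22) and Alas2 (-1.02) fell, with a median of -1.02 and sums of 10843 to 13773 against 17897 to 44614, and with the same offsets Hba-a1 (-0.79) and Alas2 (-0.88) were not called. Hbb-bs, another globin gene of this list, was at 0 in at least 1 library. The part of these lists in the subtype gene changes was not tested.

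**Figure D5:**
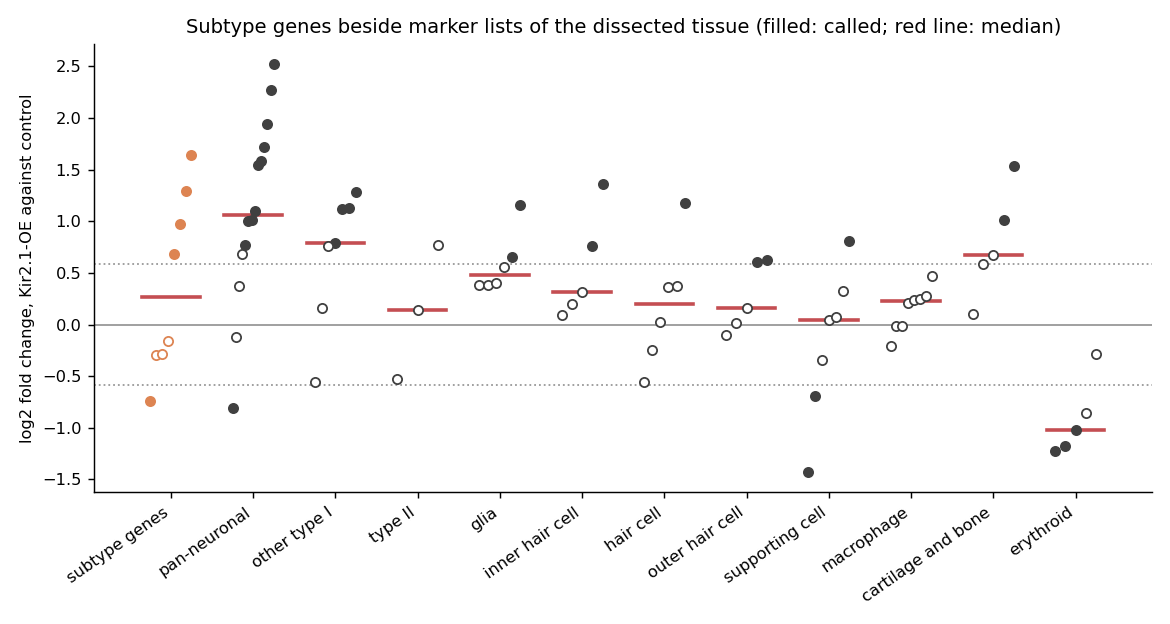
Log2 fold changes, Kir2.1-OE against control, of the subtype genes (orange) and of marker lists of the dissected tissue (1 point per gene tested, filled where called, red lines at the median, dotted lines at 1.5-fold). The subtype genes lie on both sides of 0 with a median of 0.26, the pan-neuronal genes have a median of 1.06 and the erythroid genes one of -1.02.

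Recovery of a transcript can vary with its length and GC content, and the fit was repeated with offsets for both. Log2 fold changes of 0.93 for Calb2, -0.62 for Calb1, 1.41 for Pou4f1 and 0.63 for Runx1 were found, all still called, at adjusted p-values of 0.00549, 0.00655, 0.00456 and 0.00271 from edgeR. In that fit 6.44% of all genes tested were called higher and 3.42% lower. Grm8 had 1.23 and was not called (adjusted p = 0.0580 from edgeR), Pcdh20 had -0.42 and Rxrg -0.06.

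The genes whose log2 CPM (counts scaled by library size) followed each subtype gene most closely over the 6 libraries were found among 13642 other genes averaging at least 50 normalized counts (13643 for Grm8). For Calb2 these were Rusc1, Rab3a and Mapk8ip2 (Pearson r = 0.993, 0.993 and 0.992), for Calb1 Wdr36, Aqp1 and Nov (0.998 each) and for Pou4f1 Slc9a3, Podxl and Glcci1 (1.00, 0.998 and 0.998). For Runx1 they were Plekho1, Ap2a1 and Dmxl1 (0.998, 0.997 and 0.996), for Lypd1 Pcmt1, Slc25a5 and Lypla1 (0.999 each), and for Pcdh20 Trim32 and Mettl22 (0.990 and 0.987). For Rxrg they were Trpc1, 1700003M02Rik and Ap5m1 (0.985, 0.984 and 0.984) and for Grm8 Nol3, Clcn6 and Sox12 (0.995, 0.990 and 0.985). With 6 libraries in 2 groups such values are a description of likeness, and the libraries share depth and genotype.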

How the data were processed

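RNA of pooled cochlear sensory epithelium was measured in 3 Kir2.1-OE and 3 control libraries, grouped by the genotype of the labels. The authors enriched poly(A) RNA, sequenced paired reads, ran the nf-core RNA pipeline on mm10 and deposited expected counts per gene from Salmon, estimates that need not be whole and are not scaled by length or depth. Their versions, gene annotation and strand setting are not given in the sources used here. The expected counts were rounded, scaled by TMM and filtered with filterByExpr, and the groups were compared by the quasi-likelihood test of edgeR 4.0.16 (R 4.3.3), without covariates and after the code had been tested on simulated data. Alternatives used DESeq2 1.42.0, limma 3.58.1 and GENCODE vM21 transcript lengths and GC content (23376 symbols matched directly, 669 by an older symbol, 366 not). Libraries of a group were not duplicates (chi-square per degree of freedom from 16.2 to 32.3). The header of the file of control replicate 1 carries the number 4, and the label was used. With 3 pools against 3, an exact permutation test cannot go below 0.10.

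The subtype genes and all lists were chosen with earlier results of these data known. The text names the 8 genes, Kcnj2, genes of the lists and, for the 8 genes, the 3 most correlated genes, of which a few are not reported here. Rounding, multi-mapped reads and recovery that varies with transcript length can move these values. The alternatives were other scalings, filters, tests and thresholds, a replicate block, length and GC offsets, and each library left out. Offsets and TPM from the median transcript were chosen after seeing the data.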

Additional observations from a re-analysis of the deposited data

How the results depend on the processing

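In the 17 alternatives that refitted the fold change, other than the pan-neuronal scaling, the direction of each of the 8 subtype genes held. Against a log2 fold change of 0.6 (glmTreat), 2 genes were called higher, 0 lower and 5 of the pan-neuronal genes higher. Without a fold limit 2 were called lower, and 2 also with the length and GC offsets, alone, with the replicate block or from the median transcript, Lypd1 being the second in all but the last, where it was Pcdh20. With each library left out in turn, 2 to 4 genes were called higher, 1 lower each time and 7 to 11 pan-neuronal genes higher. In the same fits 1878 to 2527 of all genes tested, which numbered 15453 to 15491, were called higher and 536 to 1074 lower. The lowest count of subtype genes was found without Kir2.1-OE replicate 3, when Calb2 and Grm8 were lost. Grm8 was also lost with upper quartile scaling (adjusted p = 0.0512 from edgeR) and limma-voom (0.0545). Scaling to the pan-neuronal genes, which moved the median of all genes to -1.01, gave the opposite sign for Calb2 (-0.44) and Runx1 (-0.072), neither distinguishable from 0 (adjusted p = 0.399 and 0.888 from edgeR). Same-numbered pools did not vary together, as their deviations from the group means correlated at -0.10, -0.22 and -0.21. Differently numbered pools correlated at 0.01 to 0.19. Deviations from a group mean cancel out within the group, so these correlations are tied to those of same-numbered pools. Pairing by litter was not tested. The replicate block left 4 genes called higher and 1 lower, with 8 pan-neuronal genes higher. Calls over all genes went from 2365 higher and 778 lower to 2220 and 718 with this block. With the median-transcript offsets 1694 and 1058 genes were called, with the longest-transcript offsets 986 and 524, and with upper quartile scaling 1897 and 1378. Against a log2 fold change of 0.6, 832 and 57 were called. The cause of these differences was not tested. Genes of few counts, such as Grm8 and Pou4f1, are limited by depth, and an absence of reads could mean up to 3 counts per library.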
